A study of Mus musculus with 46 samples.

Results

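Cytochromes P450 of the mouse lung were followed through hyperoxic injury. The genes asked for were Cyp2b10, Cyp2f2, Cyp4b1, Cyp2e1, Cyp1a1, Cyp1b1 and Por, and members were the probe sets that the platform annotation assigns to 1 of these symbols alone. Of the 7 genes, 6 had such probe sets, 8 probe sets among the 36701 non-control probe sets of the 3 array types, and all 8 lay on array type A. Por, the reductase that passes electrons to microsomal P450s, had none and is not analysed here. The brightness filter left 26833 probe sets for testing, and 6 of the 8, 1 per gene, were among them.

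The study measured total RNA of whole lung from wild type mice and from mice with a mutated Nrf2 at time zero and after 24, 48 and 72 h in 100% oxygen. The Nfe2l2 gene encodes Nrf2, a transcription factor of antioxidant and detoxification genes. The 46 arrays fall into 8 groups of 1 genotype and 1 time. Array type A, which carries all members, had 14 arrays, 2 per group except for 1 each in wild type at 24 h and the mutant at 0 h. The labels give no strain, age, sex or number of animals and do not describe the mutation further. They do not say whether replicates 1a and 1b are separate animals, so p-values measure only the spread between these samples, which may be technical. Array 1b is the single type A array of both groups with n = 1, and in the fit such an array takes its spread from the remaining groups.

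P450 enzymes are heme proteins of the endoplasmic reticulum that insert an oxygen atom into lipids, hormones, drugs and pollutants, using electrons that NADPH supplies through the reductase. In mouse lung they are concentrated in club cells, the secretory cells of the conducting airways, with further expression in alveolar type 2 cells and endothelium. Some are held constant and others are induced, CYP1 enzymes through the aryl hydrocarbon receptor and CYP2B enzymes in liver through the nuclear receptor CAR. Incomplete turnover of a P450 can release superoxide and hydrogen peroxide.

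Nfe2l2 intensity, the check of the genotype labels, ran from 2428 to 4488 in the 7 wild type samples and from 302.5 to 448.4 in the 7 mutant samples of array type A, without overlap. The mutant 0 h array stood apart from the other 13. Its mean correlation with the other arrays was 0.916 against 0.951 to 0.964, its Gapdh 3' to 5' ratio, a sign of RNA integrity, was 1.82 against 1.01 to 1.54, and its values carried at most 6 decimals against 16 or 17. The summed intensity of 8 squamous epithelium markers was 18450 there against 1652 to 2764 elsewhere, that of 8 skeletal muscle markers 26840 against 911.3 to 3114, and that of 6 fat markers 6670 against 1398 to 4437. Its summed markers of alveolar type 2 cells (44650 against 45050 or more), endothelium (34520 against 42040 or more), macrophages (14350 against 16000 or more) and ciliated cells (824.7 against 1107 or more) were below those of all 13 others. Its 4 club cell markers summed to 26210 against 16520 to 39210, of which Scgb1a1 alone was 24770. Every comparison of a type A probe set with the mutant at 0 h rests on this array. Types B and C have their own mutant 0 h arrays. All members lie on type A, so in the mutant under oxygen they are also set against wild type at 0 h. The part of these array differences in the results was not tested.

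The 150 bases upstream of the annotated start of the 4 bright genes, from RefSeq on GRCm38.p6, are printed below. The arrays measured RNA of whole lung, and the part of these windows in the RNA values was not tested. Capitals mark matches, on either strand, to 4 motifs searched by letters: GCGTG, the core bound by the aryl hydrocarbon receptor, TGACNNNGC, the core of the antioxidant response element that Nrf2 binds, TTGCNNAA, bound by C/EBP factors, and TATAAA, the TATA box.
Cyp2b10 (chr7:25897508-25897657, + strand): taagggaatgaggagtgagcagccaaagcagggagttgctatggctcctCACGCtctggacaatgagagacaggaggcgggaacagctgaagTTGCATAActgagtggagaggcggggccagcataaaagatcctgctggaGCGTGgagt
Cyp2f2 (chr7:27119805-27119954, + strand): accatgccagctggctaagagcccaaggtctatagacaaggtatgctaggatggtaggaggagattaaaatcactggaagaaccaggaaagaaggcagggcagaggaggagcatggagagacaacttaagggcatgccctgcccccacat
Cyp4b1 (chr4:115647722-115647871, - strand): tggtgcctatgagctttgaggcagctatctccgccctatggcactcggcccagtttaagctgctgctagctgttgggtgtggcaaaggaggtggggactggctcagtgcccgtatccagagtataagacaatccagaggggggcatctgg
Cyp2e1 (chr7:140763669-140763818, + strand): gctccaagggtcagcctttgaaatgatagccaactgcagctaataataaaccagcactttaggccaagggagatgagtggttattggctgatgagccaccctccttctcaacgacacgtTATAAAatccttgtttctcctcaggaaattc

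Cyp2b10 had GCGTG 9 to 5 bases upstream of the start and, on the opposite strand, 101 to 97 bases upstream, and TTGCNNAA 58 to 51 bases upstream. Cyp2e1 had TATAAA 31 to 26 bases upstream, while the Cyp2f2 and Cyp4b1 windows held no match. In the windows of the dim genes, not printed, Cyp1a1 had GCGTG at 54 to 50 and TATAAA at 30 to 25 bases upstream, and Cyp1b1 had GCGTG on the opposite strand at 76 to 72. TGACNNNGC was in none of the 6 windows. Over 32851 mouse promoter windows of the same length, GCGTG was in 20.5%, TGACNNNGC in 6.8%, TTGCNNAA in 5.46% and TATAAA in 7.57%, and some of these matches can overlap one another. In RefSeq gene order Cyp2b10 and Cyp2f2 lie on the same chromosome with 14 protein-coding genes between them, of which 9 are Cyp2 genes.

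Brightness separated the 8 probe sets into 2 kinds. Those of Cyp2b10 (102701_at), Cyp2f2 (100069_at), Cyp4b1 (103353_f_at) and Cyp2e1 (93996_at) lay above the filter value of 195 intensity units on all 14 arrays. Those of Cyp1b1 (99979_at) and Cyp1a1 (161831_at) did so on 5 and 3 arrays and passed the filter, which asks for 2. A second Cyp1a1 probe set (94715_at) was above it on 1 array and a second of Cyp1b1 (161368_r_at) on 0 arrays, so neither was tested. Intensities of different probe sets are not compared, because each probe set binds with its own strength. Because whole lung was measured, fewer cells of a type and less RNA per cell cannot be told apart.

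**Figure D1:**
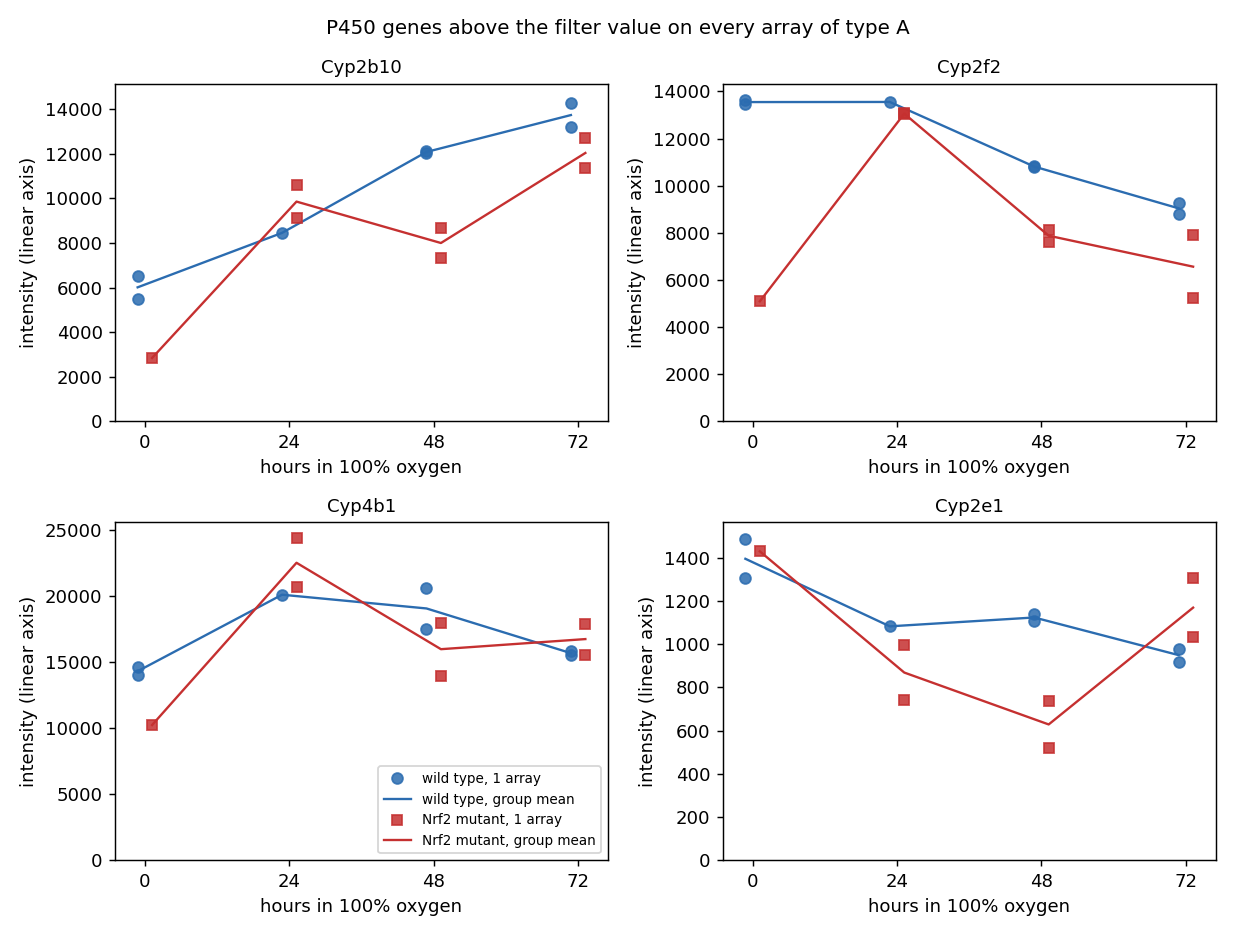
Deposited intensity (linear axes from 0) of Cyp2b10, Cyp2f2, Cyp4b1 and Cyp2e1 by hours in oxygen, 1 point per array of type A, with lines through group means of wild type and Nrf2 mutant lungs. Cyp2b10 in wild type rose from 5491 and 6540 at 0 h to 13200 and 14280 at 72 h, Cyp2f2 in wild type was 13470 and 13620 at 0 h and 8796 and 9281 at 72 h, and the single mutant 0 h array was the lowest of all 14 for Cyp2b10, Cyp2f2 and Cyp4b1.

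Cyp2b10, a CYP2B enzyme that oxidises many drugs and is known for its induction by phenobarbital in liver, rose in wild type lungs under oxygen. Its intensity in wild type was 5491 and 6540 at 0 h, 8457 at 24 h, 12050 and 12120 at 48 h, and 13200 and 14280 at 72 h. Every wild type array in oxygen was above both 0 h arrays, and no wild type time overlapped another. Folds below come from differences in log2(intensity + 78.1), where 78.1 is the 25th percentile of array type A, with limma's adjusted p over all 26833 probe sets. At 48 h the difference from 0 h was 1.0 ± 0.17 (SE; 2.0-fold; limma adjusted p = 0.00787), and at 72 h 1.19 ± 0.17 (2.27-fold; limma adjusted p = 0.00238). At 24 h it was 0.49 ± 0.21 (limma adjusted p = 0.293), which did not pass the threshold of 0.05. Where an array is left out below, the arrays of types B and C of that replicate were left out too. The 48 h call was lost when either 48 h array or 0 h array 1a was left out, with adjusted p between 0.0557 and 0.061.

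In the mutant, Cyp2b10 intensity was 2847 at 0 h, 9120 and 10600 at 24 h, 8654 and 7351 at 48 h, and 12710 and 11370 at 72 h. The mutant arrays at 24, 48 and 72 h lay above the mutant 0 h array and above both wild type 0 h arrays. Against the mutant at 0 h the log2 differences were 1.76 ± 0.21, 1.46 ± 0.21 and 2.05 ± 0.21 at 24, 48 and 72 h (limma adjusted p = 3.17e-04, 0.00125 and 1.13e-04). Against wild type at 0 h instead, Cyp2b10 at 48 h in the mutant was 0.41 higher (limma adjusted p = 0.195), so that call was lost. At 24 and 72 h the differences from wild type at 0 h were 0.71 and 1.0 (limma adjusted p = 0.0256 and 0.00376).

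Cyp2f2, which activates naphthalene and other aromatic toxicants and is a defining P450 of mouse club cells, fell from 24 to 72 h in the mutant, and its late values in wild type were lower without passing the test. In wild type its intensity was 13620 and 13470 at 0 h, 13550 at 24 h, 10840 and 10780 at 48 h, and 9281 and 8796 at 72 h. The 48 and 72 h arrays lay below all 0 and 24 h arrays, but the log2 difference of -0.58 ± 0.19 at 72 h did not pass the test (limma adjusted p = 0.0972). It passed with a trended and robust variance estimate, at an adjusted p of 0.0485, and when either mutant 72 h array was left out of the fit, at 0.0413.

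In the mutant, Cyp2f2 intensity was 5096 at 0 h, 13020 and 13090 at 24 h, 8136 and 7620 at 48 h, and 5237 and 7894 at 72 h. Its 24 h arrays sat near the wild type 0 h arrays and its 72 h arrays were below all wild type arrays. From 24 to 72 h it fell by 1.01 ± 0.19 on the log2 scale (2.02-fold; limma adjusted p = 0.0146), a comparison without the 0 h array. That call was lost when 24 h array 1a, 24 h array 1b or 72 h array 1a was left out (limma adjusted p = 0.0788, 0.0835 and 0.0725), the log2 difference being -0.72 without the last. It was also lost in a fit of only the arrays compared (limma adjusted p = 0.118). In wild type the same difference was -0.58 ± 0.23 (limma adjusted p = 0.293), and the genotypes differed in this change by -0.43 ± 0.30 (limma adjusted p = 0.817).

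The direction of Cyp2f2 in the mutant depended on its baseline. Against the mutant 0 h array it was 1.34 ± 0.23 higher at 24 h (limma adjusted p = 0.00241), and 0.62 ± 0.23 and 0.33 ± 0.23 higher at 48 and 72 h, which did not pass (limma adjusted p = 0.0922 and 0.361). Against wild type at 0 h it was -0.05 at 24 h, -0.78 at 48 h and -1.07 at 72 h (limma adjusted p = 0.90, 0.0371 and 0.00492). All these signs turned between the 2 baselines.

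The club cell markers gave a context for Cyp2f2. Of 8 listed, 6 were tested. In wild type at 72 h against 0 h, 1 of them was lower, Scgb3a2 (-1.18 ± 0.21; limma adjusted p = 0.00563), a secretoglobin of airway cells, and 0 were higher, with 7.83% of all tested probe sets called. Scgb1a1, the defining secretory protein of club cells, had a difference of 0.47 ± 0.26 (limma adjusted p = 0.338). From 24 to 72 h in the mutant, 0 of the 6 were called by limma and 3 had an unadjusted p under 0.05, all lower, with a median of -0.46 against 0.01 over all tested probe sets, and Scgb1a1 was at -0.27 ± 0.26. Between genotypes over the 3 oxygen times 1 of 6 was lower in the mutant, Aldh1a7 (-1.31 ± 0.12; limma adjusted p = 4.65e-04), an aldehyde dehydrogenase, with 1.25% of all tested called. At 0 h, mutant against wild type, 0 of the 6 were called by limma against 2.75% of all tested, and 5 had an unadjusted p under 0.05, 3 lower and 2 higher. Their median there was -0.67 against -0.04 over all tested, with Aldh1a7 at -0.91 ± 0.24 (limma adjusted p = 0.0739) and Scgb1a1 at 0.75 ± 0.31 (limma adjusted p = 0.25). The summed intensity of the 4 markers on type A was 16520 to 18460 in wild type at 0 h, 20640 to 24960 at 72 h, 28850 to 39210 in the mutant at 24 h and 25000 to 30760 at 72 h. Scgb1a1 made up most of this sum. Its mean in wild type was 14700 at 0 h and 20430 at 72 h, while the means went from 1999 to 1788 for Aldh1a7, from 275.8 to 194 for Cbr2 and from 510.8 to 390.8 for Cckar. The part of these markers in the Cyp2f2 values was not tested.

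Cyp4b1, which hydroxylates fatty acids and activates furans and is abundant in lung, rose in the mutant at 24 h. In wild type its intensity was 14620 and 14010 at 0 h, 20110 at 24 h, 17510 and 20630 at 48 h, and 15560 and 15810 at 72 h. All wild type arrays in oxygen lay above the 0 h arrays, but none of the log2 differences, 0.49 ± 0.22, 0.41 ± 0.18 and 0.13 ± 0.18 at 24, 48 and 72 h, passed the test (limma adjusted p = 0.335, 0.230 and 0.745). In the mutant it was 10240 at 0 h, 20680 and 24380 at 24 h, 17980 and 13990 at 48 h, and 17920 and 15580 at 72 h.

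The mutant 24 h arrays of Cyp4b1 were above all other mutant arrays. Against the mutant 0 h array it rose by 1.13 ± 0.22 at 24 h (2.18-fold; limma adjusted p = 0.00465) and by 0.70 ± 0.22 at 72 h (1.63-fold; limma adjusted p = 0.0446). Against wild type at 0 h it was 0.65 higher at 24 h (limma adjusted p = 0.0464) and 0.22 higher at 72 h (limma adjusted p = 0.502), which ended the 72 h call. Without 1 array at a time, the 72 h call was also lost for any wild type array of 0, 48 or 72 h and any mutant array of 24 or 72 h (limma adjusted p = 0.0527 to 0.161). It was lost too in a fit of only the arrays compared (limma adjusted p = 0.174), with a floor in place of the added value, with the 10th percentile added and with no filter (limma adjusted p = 0.0562, 0.054 and 0.0538).

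A further probe set (162044_f_at) is shared by Cyp4b1 and the pseudogene Cyp4b1-ps2, so it is no member. Its intensity ran from 1351 to 2347 over the 14 arrays, with a median of 1984 and the mutant 0 h array lowest. Against that array it was 0.75 ± 0.21 higher in the mutant at 24 h (limma adjusted p = 0.0243). In the mutant at 72 h it was 0.40 ± 0.21 higher, which did not pass (limma adjusted p = 0.2145). Cyp4b1-ps2 has its own probe set on array type B, which was higher than at 0 h in wild type at 72 h (0.86 ± 0.21; limma adjusted p = 0.0261) and in the mutant at 72 h (1.15 ± 0.21; limma adjusted p = 0.00219). The Cyp4b1 member probe set carries the suffix that marks probes shared between similar sequences, so signal from such copies cannot be told apart.

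The summed intensity of 13 endothelial markers on type A was 42040 to 43130 in wild type at 0 h, 65180 at 24 h, 59060 to 64100 at 48 h and 48970 to 53330 at 72 h. In the mutant the sum was 34520 at 0 h, 70660 to 83380 at 24 h, 57530 to 63980 at 48 h and 60700 to 64310 at 72 h. Both genotypes had their lowest sums at 0 h and their highest at 24 h, as did Cyp4b1 in the mutant. The sum of 5 alveolar type 2 markers was 48660 to 49310 in wild type at 0 h, 63380 at 24 h, 58080 to 58380 at 48 h and 47440 to 47680 at 72 h. In the mutant it was 44650 at 0 h, 72690 to 88440 at 24 h, 46660 to 64850 at 48 h and 45050 to 53480 at 72 h. In the mutant at 24 h against 0 h, where 24.4% of all tested probe sets were called, 5 of 10 alveolar type 2 markers and 7 of 14 endothelial markers were called higher, with medians of 0.90 and 0.68 against -0.03 over all tested. There 6 of 10 neutrophil, 4 of 8 macrophage, 4 of 8 fibroblast and 3 of 6 smooth muscle markers were called higher too. Their medians were 1.19, 0.90, 0.76 and 0.83, with 1 neutrophil and 1 fibroblast marker called lower. Only lower calls were found for squamous (5 of 8), skeletal muscle (5 of 6) and fat markers (2 of 4). Of 8 alveolar type 1 markers 3 were called higher and 2 lower, and of 6 club cell markers 1 each way. Of 6 ciliated cell markers 1 was called higher, and of 2 liver markers 0 were called. These calls include markers on types B and C, which have their own mutant 0 h arrays. The rise from the mutant at 0 h was thus not particular to alveolar type 2 cells and endothelium, nor shared by all cell types listed. The part of any of these cell types in the Cyp4b1 values was not tested.

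Cyp2e1, which oxidises ethanol and small solvents and is known for releasing reactive oxygen, was lower in the mutant at 48 h. In wild type its intensity was 1484 and 1305 at 0 h, 1082 at 24 h, 1141 and 1105 at 48 h, and 978.7 and 918.9 at 72 h. Every wild type array in oxygen was below both 0 h arrays, yet the 72 h difference of -0.52 ± 0.21 did not pass (limma adjusted p = 0.170). In the mutant it was 1429 at 0 h, 993.9 and 742.6 at 24 h, 737.7 and 518.7 at 48 h, and 1304 and 1033 at 72 h.

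In each of the 6 groups with both arrays, array 1a of Cyp2e1 was above array 1b. A constant order of this kind was found for 10.6% of the tested probe sets of type A and for no other member. The mutant 48 h arrays of Cyp2e1 were the lowest of all 14, and the 72 h arrays were above both 24 h and 48 h arrays. At 48 h it was lower than in the mutant 0 h array by 1.11 ± 0.25 on the log2 scale (2.16-fold; limma adjusted p = 0.0131), and the difference from wild type at 0 h was -1.08 (limma adjusted p = 0.0129). The call was lost without 48 h array 1b (-0.89; limma adjusted p = 0.0603) and in a fit of only the arrays compared (limma adjusted p = 0.0551). From 48 to 72 h the mutant difference was 0.83 ± 0.21 (limma adjusted p = 0.0793) and the wild type one -0.23 ± 0.21 (limma adjusted p = 0.726), a comparison added after the data were seen.

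**Figure D2:**
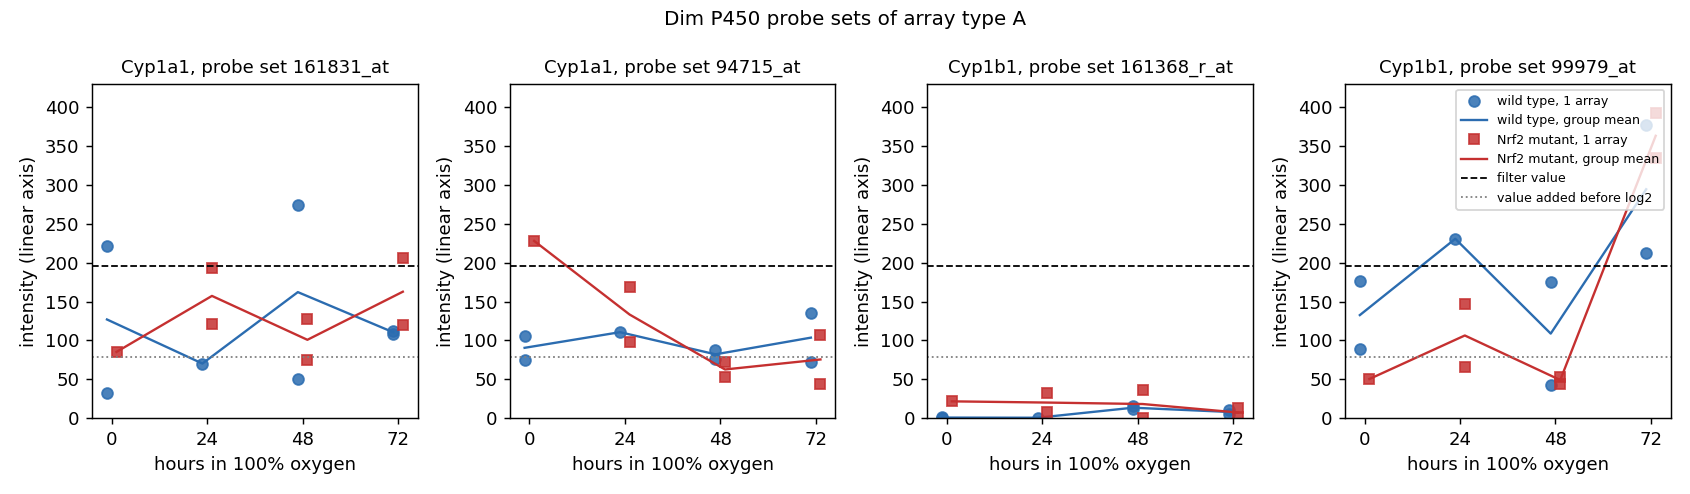
Deposited intensity (linear axes from 0) of the 4 dim probe sets of Cyp1a1 and Cyp1b1 by hours in oxygen, 1 point per array of type A, with lines through group means. The dashed line is the filter value of 195 and the dotted line the added value of 78.1, and most points lie below the dashed line, a mutant 72 h array of Cyp1b1 at 392.1 being the highest.

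Both CYP1 genes, both known as targets of the aryl hydrocarbon receptor, were dim. Cyp1b1, which oxidises estrogens and polycyclic hydrocarbons, had intensities in wild type of 88.6 and 176.5 at 0 h, 230.6 at 24 h, 175 and 42.52 at 48 h, and 212.2 and 376.3 at 72 h. In the mutant they were 50.4 at 0 h, 147 and 65.7 at 24 h, 53.56 and 44.61 at 48 h, and 392.1 and 333.8 at 72 h. The mutant 72 h arrays were above all earlier arrays of either genotype.

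At 72 h in the mutant Cyp1b1 was called higher than at 0 h (limma adjusted p = 0.0176) and, in an added comparison, than at 48 h (limma adjusted p = 0.0358), while the difference from 24 h did not pass (limma adjusted p = 0.0745). The 0 and 48 h arrays of the mutant lie below both the filter value and the added value of 78.1. The size of these differences therefore depends on the added value, and neither a log2 difference nor a fold is given. In wild type the 72 h difference from 0 h did not pass (limma adjusted p = 0.228). The mutant 72 h call was lost against wild type at 0 h (limma adjusted p = 0.0799) and without mutant 72 h array 1a (limma adjusted p = 0.0687). The second Cyp1b1 probe set stayed between 0.351 and 36.2 on all 14 arrays.

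Cyp1a1, the enzyme known for its strong induction through the aryl hydrocarbon receptor, was called by limma in 0 of the comparisons run, and its unadjusted p was under 0.05 in 0 of them. Its tested probe set ran from 32.66 to 273.4 with a median of 116.3, and its 2 wild type 0 h arrays, 221.2 and 32.66, spanned nearly this range. The SE of its 72 h difference from 0 h was 0.50 in wild type and 0.61 in the mutant, where the differences were 0.05 and 0.54 (limma adjusted p = 0.971 and 0.598). Against wild type at 0 h, Cyp1a1 in the mutant was at 0.35, -0.04 and 0.38 at 24, 48 and 72 h (limma adjusted p = 0.723, 0.976 and 0.710). Its second probe set ran from 44.57 to 227.9 with a median of 92.8, the mutant 0 h array being the highest.

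Counted over the 6 tested members, 0 of 6 were called by limma in wild type at 24 h against 0 h, with 1.72% of all 26833 tested probe sets called. Unadjusted p-values under 0.05 were found for 2 of the 6. At 48 h 1 of 6 was called (Cyp2b10, higher) against 6.64% of all, and at 72 h 1 of 6 (Cyp2b10, higher) against 7.83%. At 72 h 4 of 6 had an unadjusted p under 0.05 (Cyp1b1, Cyp2b10, Cyp2e1 and Cyp2f2), as had 5771 of the 26833 tested, and at 48 h 2 of 6. The median member difference at 72 h was 0.09, against -0.06 over all tested. From 24 to 72 h 0 of 6 were called against 1.5%, with 2 of 6 at an unadjusted p under 0.05; under quantile normalization Cyp2b10 passed (0.98; limma adjusted p = 0.0341).

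In the mutant against its 0 h array, 3 of 6 members were called at 24 h, all higher (Cyp2b10, Cyp2f2 and Cyp4b1), against 24.4% of all tested. At 48 h Cyp2b10 was higher and Cyp2e1 lower, 2 of 6 against 17.9%. At 72 h Cyp2b10, Cyp4b1 and Cyp1b1 were higher, 3 of 6 against 21.5%, with the mutant 0 h array of Cyp1b1 below the filter value. These 3 comparisons share the mutant 0 h array, and their background share was above that of wild type. Against wild type at 0 h instead, 2 of 6 were called at 24 h (Cyp2b10 and Cyp4b1, higher) against 10.2%, 2 of 6 at 48 h (Cyp2f2 and Cyp2e1, lower) against 6.45%, and 2 of 6 at 72 h (Cyp2b10 higher, Cyp2f2 lower) against 12.9%. From 24 to 72 h in the mutant 1 of 6 was called (Cyp2f2, lower) against 5.05%, and from 48 to 72 h 1 of 6 (Cyp1b1, higher) against 2.05%. The counts with Cyp1b1, here and at 72 h against 0 h, include a probe set that would have failed the filter without its 72 h arrays. In the added steps from 24 to 48 h in wild type and in the mutant and from 48 to 72 h in wild type 0 of 6 were called by limma, against 0.0634%, 0.645% and 0.596%, with 1, 2 and 1 of 6 at an unadjusted p under 0.05. The genotype differences in the steps from 24 to 48 h and from 48 to 72 h were called for 0 of 6 by limma, against 0.209% and 0.0335%, with 1 of 6 at an unadjusted p under 0.05 in each.

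**Figure D3:**
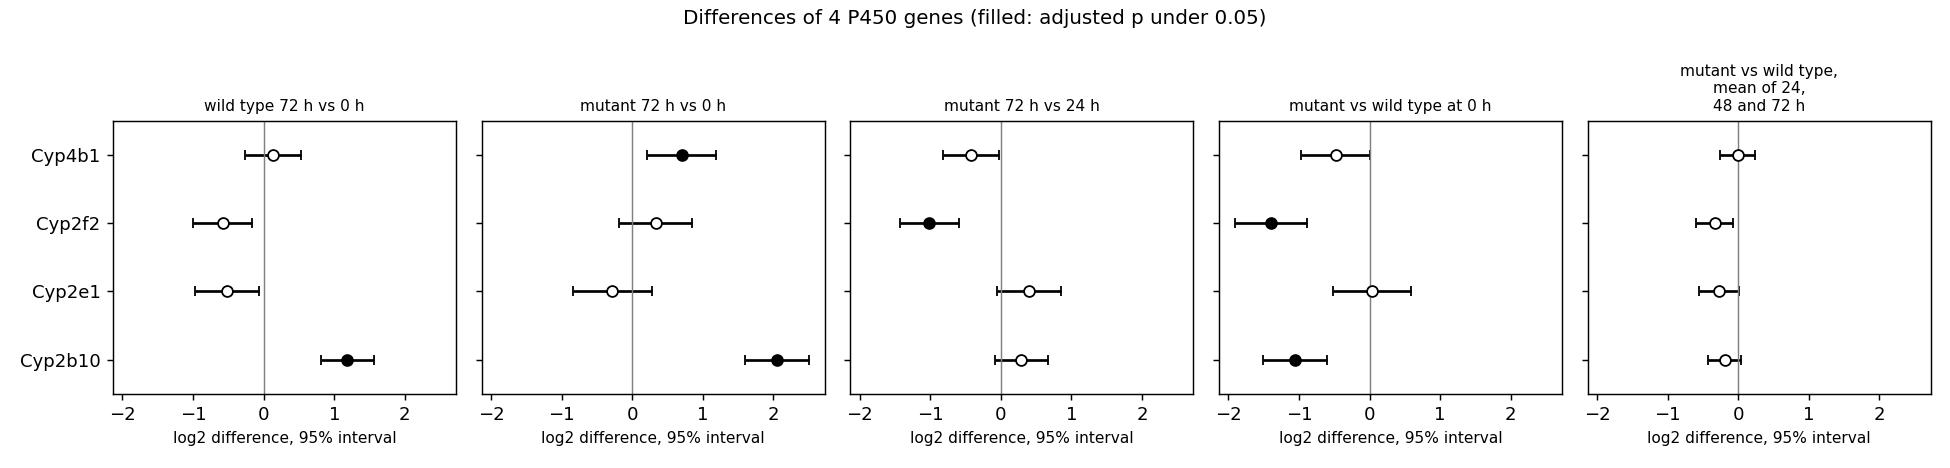
Log2 differences with 95% confidence intervals from limma for Cyp4b1, Cyp2f2, Cyp2e1 and Cyp2b10 in 5 comparisons, filled where the adjusted p is under 0.05. The genotype panel at 0 h has Cyp2f2 at -1.40 and Cyp2b10 at -1.05, filled, while the panel of the mean over 24, 48 and 72 h has no filled point.

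A difference between mutant and wild type lungs was called for 2 members at 0 h and for none at 24, 48 or 72 h. At 0 h Cyp2f2 was lower in the mutant by 1.40 ± 0.23 on the log2 scale (2.63-fold; limma adjusted p = 0.0142) and Cyp2b10 by 1.05 ± 0.21 (2.08-fold; limma adjusted p = 0.0268), 2 of 6 members against 2.75% of all tested. The single mutant array, 5096 for Cyp2f2 and 2847 for Cyp2b10, was below both wild type arrays. Without wild type array 1a or 1b, or in a fit of only these 3 arrays, 0 of 6 were called; for Cyp2f2 the adjusted p was 0.0704, 0.0543 and 0.0562, and for Cyp2b10 0.0697, 0.103 and 0.126.

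Under oxygen, 0 of 6 members were called between genotypes at 24, 48 or 72 h by limma, against 0.157%, 0.376% and 0.82% of all tested. Unadjusted p-values were under 0.05 for 0, 3 and 1 of the 6. As the mean of the 3 times, Cyp2f2 was at -0.33 ± 0.12 (limma adjusted p = 0.300), Cyp2e1 at -0.27 ± 0.13 (0.476), Cyp2b10 at -0.19 ± 0.10 (0.573) and Cyp4b1 at 0.00 ± 0.11 (0.997), so 0 of 6 were called against 1.25%. The 95% interval was -0.59 to -0.07 for Cyp2f2 and -0.25 to 0.25 for Cyp4b1. Averaged over all 4 times, 0 h included, Cyp2f2 was called (-0.60; limma adjusted p = 0.0203).

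At 48 h the mutant arrays of Cyp2b10, Cyp2f2 and Cyp2e1 all lay below both wild type arrays, 3 of 6 members, as did 25.5% of the tested probe sets of type A. The differences were -0.59 ± 0.17, -0.45 ± 0.19 and -0.78 ± 0.21 (limma adjusted p = 0.237, 0.500 and 0.201). The genotype difference in the response was also tested directly. In the change from 0 to 72 h 0 of 6 were called against 1.36%, with 2 at an unadjusted p under 0.05. In the change from 24 to 72 h 0 of 6 were called against 0.112%, with 0 at an unadjusted p under 0.05. The F test over 24, 48 and 72 h called 0 of 6 against 1.34%, with 3 at an unadjusted p under 0.05, and its largest value was 7.31 for Cyp2b10 (limma adjusted p = 0.144).

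The groups can be ordered by level within each probe set. For Cyp2b10 the order ran from the mutant at 0 h through wild type at 0 h, mutant 48 h, wild type 24 h, mutant 24 h, mutant 72 h and wild type 48 h to wild type 72 h. Of the 42 tests between neighbours in the orders of the 6 tested probe sets, 1 passed, that between the mutant and wild type at 0 h for Cyp2b10. For Cyp2f2, Cyp4b1, Cyp2e1, Cyp1b1 and Cyp1a1 no test between neighbours passed. The order came from the same values, so neighbours are the closest groups by construction. These tests therefore say nothing about groups further apart in the order.

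The members did not share a common profile. Over the 14 arrays the correlation of log2 intensity was 0.65 between Cyp2b10 and Cyp4b1 and 0.33 without the mutant 0 h array, and 0.15 between Cyp2b10 and Cyp2f2 and -0.46 without it. These arrays share groups and scaling, so the values are descriptions with no test. By the same measure, among all genes tested on type A, the closest to Cyp2b10 were Atxn10 (Pearson r = 0.950), Map2k3 (0.948) and Basp1 (0.946). Closest to Cyp2f2 were Lsp1 (0.905), Inpp5k (0.903) and Ezh1 (0.898), to Cyp4b1 Pnpla2 (0.945), Eng (0.942) and Eef2 (0.918), and to Cyp2e1 Ank1 (0.835), Slc19a1 (0.825) and Mt3 (0.822). The dim Cyp1b1 and Cyp1a1 came closest to Arih2 (0.910) and C1ra (0.898).

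**Figure D4:**
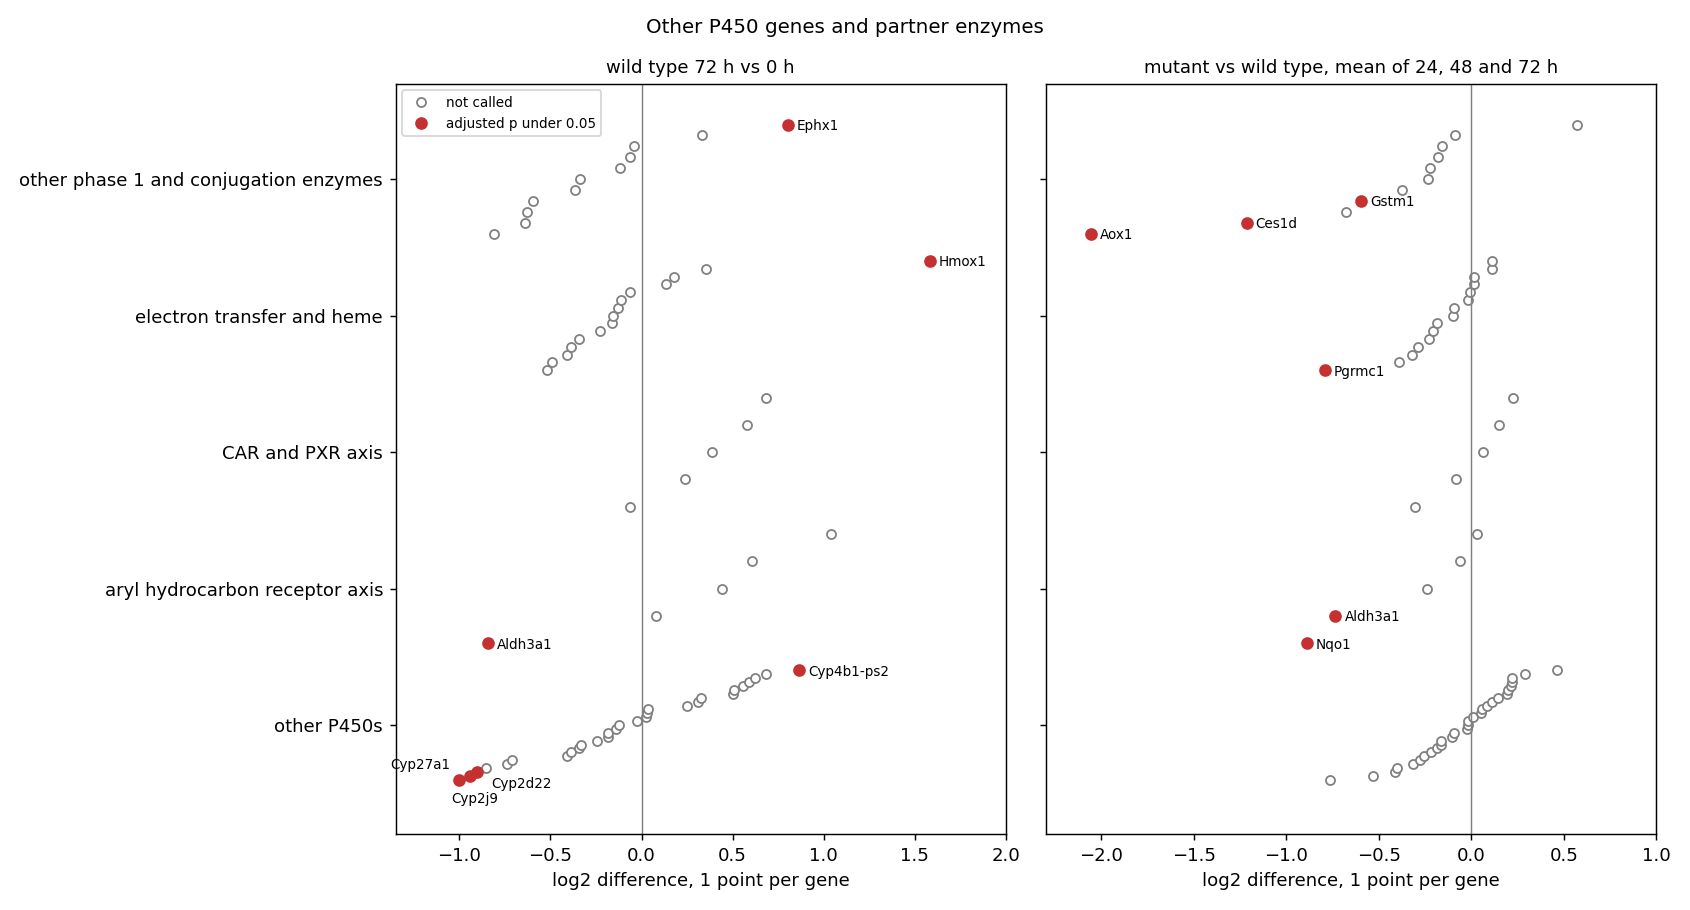
Log2 differences from limma, 1 point per tested gene in 5 lists, for wild type at 72 h against 0 h and for the mutant against wild type as the mean of 24, 48 and 72 h. Red points have an adjusted p under 0.05. Hmox1 at 1.58 is the highest red point on the left, and Aox1 at -2.06 the lowest on the right, where no other P450 is red.

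Other P450 genes on the arrays numbered 52, of which 29 were tested. In wild type at 72 h against 0 h, 1 was higher, Cyp4b1-ps2, and 3 were lower, against 7.83% of all tested probe sets called. In the genotype comparison below, as the mean of the 3 oxygen times, 1.25% of all were called. Both shares also apply to the lists that follow. The lower ones were Cyp27a1 (-0.94 ± 0.20; limma adjusted p = 0.0116), a mitochondrial sterol hydroxylase, Cyp2j9 (-1.0 ± 0.25; 0.0306), of the fatty acid epoxygenase family, and Cyp2d22 (-0.90 ± 0.24; 0.0391). The median of the 29 was -0.13, against -0.06 over all tested. Between genotypes over the 3 oxygen times 0 of 29 were called by limma and 6 had an unadjusted p under 0.05, with Cyp2d22 at -0.53 ± 0.14 (limma adjusted p = 0.106).

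Of the aryl hydrocarbon receptor axis 5 genes were tested. In wild type at 72 h 0 were higher and 1 lower, Aldh3a1 (-0.84 ± 0.21; limma adjusted p = 0.0350), an aldehyde dehydrogenase. Tiparp, a receptor target, was at 0.60 ± 0.17 (limma adjusted p = 0.0565). Between genotypes under oxygen 2 of 5 were lower in the mutant, Nqo1 (limma adjusted p = 0.00437), a quinone reductase that is also an Nrf2 target, and Aldh3a1 (-0.73 ± 0.13; limma adjusted p = 0.0215). The Nqo1 intensities in the mutant were 64.25 to 92.61 at 24 h, 54.89 to 108.2 at 48 h and 62.96 to 80.38 at 72 h. All lay below the filter value, as did the mutant 0 h array at 122.7. The probe set thus passed the filter through wild type arrays alone, and its call is not independent of the filter. The size of the Nqo1 difference depends on the added value and is not given. The Nqo1 probe set also carries the suffix that marks probes shared between similar sequences. Of the CAR and PXR axis, receptors and coactivators linked to CYP2B and CYP3A induction, limma called 0 of 5 tested genes in wild type at 72 h and 0 of 5 between genotypes under oxygen, with 2 and 0 at an unadjusted p under 0.05. In wild type 72 h the smallest p in it was that of Ncoa1 (0.58 ± 0.22; limma adjusted p = 0.138). In wild type at 48 h against 0 h 1 of 5 was called higher, against 6.64% of all tested. In the mutant at 24, 48 and 72 h against mutant 0 h arrays of the same array type 2 of 5 were called higher, against 24.4%, 17.9% and 21.5%. Nr1i2, the gene of PXR, did not pass the filter and was not tested.

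Among genes of electron transfer and heme, 15 were tested. In wild type at 72 h 1 was higher, Hmox1 (1.58 ± 0.24; limma adjusted p = 0.00315), which degrades heme, and 0 were lower, while Alad, of heme synthesis, was at -0.52 ± 0.15 (0.0563). Between genotypes under oxygen 1 of 15 was lower, Pgrmc1 (-0.79 ± 0.12; limma adjusted p = 0.0112), a heme-binding partner of P450s. Among other phase 1 and conjugation enzymes, 11 were tested. In wild type at 72 h 1 was higher, Ephx1 (0.80 ± 0.17; limma adjusted p = 0.0186), the microsomal epoxide hydrolase, and 0 were lower. Between genotypes under oxygen 3 of 11 were lower in the mutant, Aox1 (-2.06 ± 0.22; limma adjusted p = 0.00115), an aldehyde oxidase, Ces1d (-1.21 ± 0.10; 2.07e-04), a carboxylesterase, and Gstm1 (-0.60 ± 0.12; 0.0422), a glutathione transferase. No P450 member was called in that comparison, and the difference between these enzymes and the members was not tested. The Ces1d and Gstm1 probe sets also carry the suffix that marks probes shared between similar sequences, so signal from such copies cannot be told apart.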

How the data were processed

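Total RNA of mouse lung was measured on 3 types of oligonucleotide array in 8 groups of genotype and time. The values the authors deposited are intensity on a linear scale, with 1 value for each probe set on each array. Which software and genome build made them is not given in the sources used here. Detection calls were not used. The 2% trimmed mean of the deposited intensity was 800.4 to 800.5 on type A, so this scaling was kept. Differences were computed on log2(intensity + c), with c the 25th percentile of the array type, 78.1 on A, 126 on B and 106 on C. Without control probe sets, a probe set was tested when above the 40th percentile of its type (195 on A) on at least 2 arrays. The tests used limma 3.58.1 (R 4.3.3), in 1 fit per array type with 1 mean per group and no block. Two-sided p-values received a Benjamini-Hochberg adjustment over all 26833 tested probe sets, with a call at an adjusted p under 0.05. Intervals and SEs rest on 14 arrays for probe sets of type A and on 16 for those of type B or C. The number of arrays limits the precision.

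Symbols came from the platform annotation, which can be old. Of the tested probe sets 21868 had 1 symbol, 546 had several and 4419 were not listed. Where a gene of a list had several probe sets, the brightest was used. All 6 member genes matched the RefSeq promoter table. Likeness was the Pearson r of log2 values over 14 arrays, the 3 highest being considered. The members and lists were chosen with earlier results of these data known. The named list genes were those with the smallest p-values in 2 comparisons, a subset of which is printed. The steps from 24 to 48 h and 48 to 72 h, and adjustment over array type A alone, were added after the data were seen. No 2 arrays held identical values. The fit was tested on simulated data.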

Additional observations from a re-analysis of the deposited data

Results flagged for a closer look

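For 6 pairs of times the arrays of the genotypes moved in opposite directions without overlap, and the mutant change minus the wild type change was tested by limma in each. For Cyp2f2 this difference was 0.94 from 0 to 48 h (limma adjusted p = 0.233) and 0.91 from 0 to 72 h (limma adjusted p = 0.182), and both rest on the mutant 0 h array that stood apart. For Cyp2b10 it was -0.81 from 24 to 48 h (limma adjusted p = 0.320), where the wild type difference was 0.51 and the mutant one -0.30. For Cyp2e1 it was -0.48 from 24 to 48 h, 0.58 from 24 to 72 h and 1.05 from 48 to 72 h (limma adjusted p = 0.653, 0.757 and 0.443). None of these differences passed the threshold. Such opposite moves were 6 of the 36 combinations of a member and a pair of times (16.7%), and 12.8% of the 51090 combinations over all tested probe sets of type A.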

How the results depend on the processing

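Of 2320 values of single tested probe sets under an alternative, 2267 kept their call, 34 lost it, 16 gained it and 3 reversed. The 3 were Cyp2f2 in the mutant under oxygen set against wild type at 0 h, at -0.0531, -0.78 and -1.07 for 24, 48 and 72 h. A further 34 uncalled values changed sign. Only values called in the main fit can lose a call, and these were a minority of the 2320. The 34 lost calls are therefore not to be read as a share of 2320. Leaving out a replicate with no type A array changed only the adjustment. Counts of called members moved as follows. To leave out an array means here to leave out that replicate on all 3 array types. Leaving out 1 array gave 0 to 1 in wild type at 48 h, 1 to 2 at 72 h, 1 to 3 in the mutant at 48 h and at 72 h, 0 to 2 from 24 to 72 h in the mutant, and 0 to 2 between genotypes at 0 h. A trended and robust variance gave 2 in wild type at 72 h. Quantile normalization gave 4 in the mutant at 48 h and 1 in wild type from 24 to 72 h. A fit of only the arrays compared gave 1 in the mutant at 48 h, 0 from 24 to 72 h in the mutant and 0 between genotypes at 0 h. Adjusting over type A alone gave 2 from 24 to 72 h in the mutant, and the mean of all 4 times gave 1 between genotypes. A trended and robust variance (limma adjusted p = 0.035), the stricter filter (0.0487) and quantile normalization (0.00661) each called Cyp4b1 in the mutant at 48 h, and the stricter filter Cyp2e1 in the mutant at 24 h (0.0497). Correlations between same-numbered deviations were over 0.1 in 7 of 15 pairs on type A, 18 of 28 on B and 2 of 28 on C. Their medians were 0.096, 0.126 and 0.04. These values differ between array types and do not decide whether the numbers pair the samples. The labels leave the meaning of the replicate numbers open, so the main fit used no block. With the replicate number as a replicate block, Cyp2e1 in the mutant at 24 h was called (-0.81; limma adjusted p = 0.0147) and Cyp4b1 at 72 h was not (0.69; limma adjusted p = 0.0518). The block changed no other call. Except where arrays or probe sets were fewer, the cause was not tested. Leaving out the only type A array of a group gave no value for comparisons with that group. Cyp1a1 and Cyp1b1 lie near the background of the arrays, which limits what their differences can show.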
